A study of Mus musculus with 4 samples.

Results

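The 10 genes described here are the co-activators *Yap1* and *Wwtr1*, the 4 TEAD transcription factors *Tead1*, *Tead2*, *Tead3* and *Tead4*, and the target genes *Cyr61*, *Ctgf*, *Ankrd1* and *Amotl2*. They were matched by symbol among the 53379 gene identifiers of the deposited tables, and they were chosen on the measured difference between PD800 and PD100 cells in expected count and TPM. Their differences are therefore given as a description, without p-values, and no conclusion is drawn from testing them. Bulk RNA came from the mouse embryonic stem cell (mESC) line DKO741, derived from E14 cells and lacking *Terc*, the gene of the telomerase RNA, on both alleles. The PD100 libraries came from this line at 100 population doublings, before alternative lengthening of telomeres (ALT) was active. The PD800 libraries came from survivors of the same line at 800 population doublings, which maintained their telomeres by ALT. Population doublings are taken from the sample titles and the study, whereas the treatment label of the samples speaks of passages. Each group had 2 libraries, described as biological duplicates. All 4 libraries share the *Terc* deletion and 1 cell line, so that time in culture, selection of survivors and ALT cannot be told apart. Fibroblast feeder cells were used for maintenance of the line, and feeder-free cells for RNA.

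The Hippo pathway is a kinase cascade that links cell contact, polarity and cytoskeletal tension to transcription. Its kinases LATS1 and LATS2 phosphorylate YAP (encoded by *Yap1*) and TAZ (encoded by *Wwtr1*), which are then held in the cytoplasm or degraded. Unphosphorylated YAP and TAZ enter the nucleus and bind TEAD factors, which bring them to DNA. In the early mouse embryo, TEAD4 with YAP drives the trophectoderm programme in outer cells. Because the control acts on protein, RNA of the factors does not measure YAP activity, and protein was not analysed here.

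The total expected count, RSEM's estimate of read pairs assigned to genes, lay between 32454121 and 38492149 per library. *Terc* had a count of 1 in the first PD100 library and of 0 in all others. Levels of 1 gene across libraries are mostly given as CPM, counts scaled to library totals that were adjusted by edgeR's TMM factors. TPM values, which are also scaled for transcript length, are used when genes are compared with each other, and for *Lats2*. All 10 members passed the filter on low counts, and each lay above its cutoff of 0.282 CPM in every library. The embryonic stem cell markers with the highest mean CPM over all 4 libraries, *Dppa5a*, *Pou5f1* and *Zfp42*, each had at least 350 CPM in all 4 libraries.

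The promoters of the target genes are shown first, because TEAD factors reach a gene through sites in its DNA. RefSeq windows of GRCm38.p6, from 250 bases before to 50 bases after a transcription start, were found for 7 of the 10 members. *Tead1*, *Tead4* and *Ctgf* had no entry. The TEAD motif was searched as GGAATG on both strands, so that it reads CATTCC on the opposite strand. The 250 bases before the start follow for 3 target genes, 5′ to 3′ on the strand of the gene, with the TEAD motif in capitals. They lie at chr3:145649986-145650235 on the minus strand for *Cyr61*, chr19:36119845-36120094 on the minus strand for *Ankrd1*, and chr9:102717554-102717803 on the plus strand for *Amotl2*.
Cyr61: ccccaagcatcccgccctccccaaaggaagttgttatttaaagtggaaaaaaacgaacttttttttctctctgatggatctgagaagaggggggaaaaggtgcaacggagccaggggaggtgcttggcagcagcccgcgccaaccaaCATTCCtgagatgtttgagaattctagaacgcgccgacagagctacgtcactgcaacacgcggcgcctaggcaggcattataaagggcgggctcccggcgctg
Ankrd1: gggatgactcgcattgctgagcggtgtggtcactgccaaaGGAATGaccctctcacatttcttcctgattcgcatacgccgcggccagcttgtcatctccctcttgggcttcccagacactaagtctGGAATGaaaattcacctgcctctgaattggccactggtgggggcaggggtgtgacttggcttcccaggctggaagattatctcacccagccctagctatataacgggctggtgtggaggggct
Amotl2: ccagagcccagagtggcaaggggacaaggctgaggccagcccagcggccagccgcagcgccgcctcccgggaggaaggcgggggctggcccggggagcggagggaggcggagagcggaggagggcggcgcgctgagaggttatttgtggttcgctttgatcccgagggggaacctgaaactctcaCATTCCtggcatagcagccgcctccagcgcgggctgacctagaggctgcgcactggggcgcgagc

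The single site of *Cyr61* began 103 bases before the start, those of *Ankrd1* 210 and 123 bases before, and that of *Amotl2* 65 bases before. These distances hold for the RefSeq start used. The printed stretches of *Ankrd1* and *Amotl2* lie inside the GENCODE gene spans given below, so another annotated start would give other distances. A TATA motif, TATAAA on either strand, was present in the *Cyr61* window, 25 bases before the start, and in no other member window. The TEAD motif was also present in windows of the factors *Yap1*, *Wwtr1* and *Tead3*, but not in that of *Tead2*. The 9 sites that lie before a start are set below in the direction of GGAATG, with 10 bases on each side, so that their flanks can be compared.
Cyr61: aaacatctcaGGAATGttggttggcg
Ankrd1, far site: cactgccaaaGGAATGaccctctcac
Ankrd1, near site: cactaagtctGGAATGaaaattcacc
Amotl2: tgctatgccaGGAATGtgagagtttc
Yap1: ggagtctgcaGGAATGtagcgacgcg
Wwtr1: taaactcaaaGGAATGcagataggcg
Tead3, first start: cgacgagcgaGGAATGgggtgcgcgg
Tead3, second start, far site: cggaatgtacGGAATGagcccggccg
Tead3, second start, near site: ggggatggccGGAATGtacggaatga

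Of these sites, 6 were preceded by A, and 4 were followed by T, 3 by A, 1 by C and 1 by G. Both sites at the second start of *Tead3* overlap in the bases shown. In all, 8 of 10 member windows held the motif, from 6 of the 7 genes, while 14.7% of the 32851 RefSeq windows of the same length held it. Windows of 1 gene overlap, and both windows of *Wwtr1* hold the same site. With the 250 bases before the start alone, 8 member windows and 12.6% of all windows held it. The AP-1 motif, TGANTCA, was in 7.81% of all windows and the CArG box, the site of SRF, in 1.63%, and neither was in a member window. A match describes letters in a window, and binding was not analysed here.

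**Figure D1:**
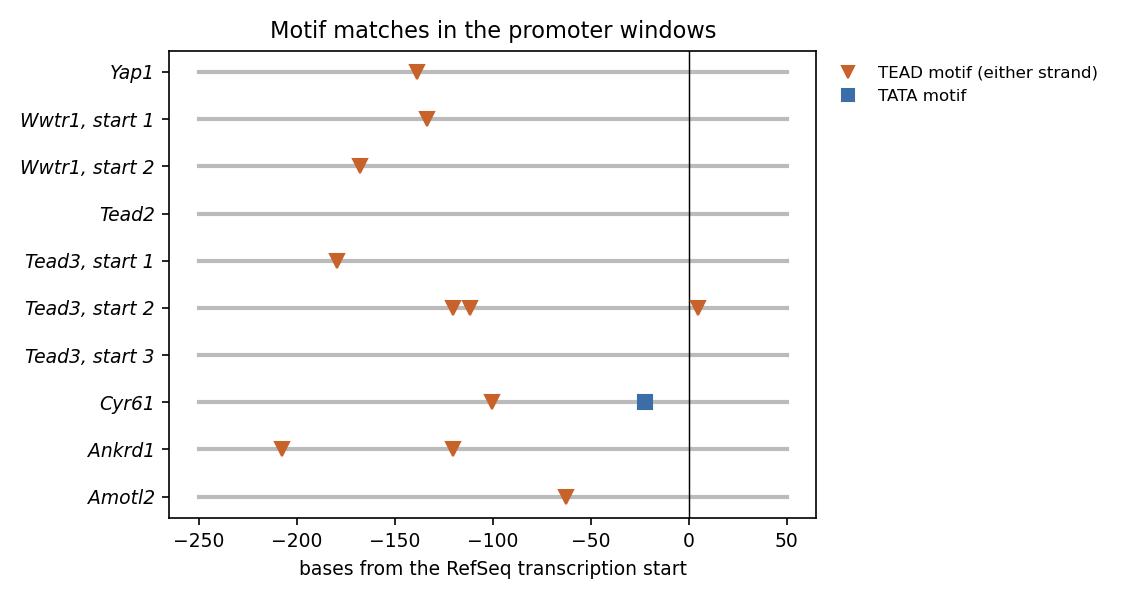
Positions of the TEAD motif (triangles, either strand) and the TATA motif (square) in the 10 promoter windows of 7 members; the horizontal axis gives bases from the RefSeq transcription start, and each grey line is 1 window. *Cyr61*, *Ankrd1* and *Amotl2* have a TEAD motif in the 250 bases before the start, and the *Tead2* window has none.

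The target genes were lower in PD800 cells, by 2.52-fold to 24.8-fold between the group means. *Cyr61* (also called *Ccn1*; GRCm38 chromosome 3, 145646976 to 145649981, minus strand) encodes a secreted matricellular protein that binds integrins. It was at 93.6 and 88.3 CPM in the PD100 libraries, against 3.95 and 3.39 CPM at PD800. Both PD800 libraries lay far under both PD100 libraries, with means of 90.9 ± 3.71 and 3.67 ± 0.395 CPM (SD, n = 2). The log2 fold change, PD800 over PD100, was -4.63 with a standard error of 0.11. Of the 19148 genes tested, 97 had a lower one.

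*Ctgf* (also called *Ccn2*; chromosome 10, 24595442 to 24598683, plus strand) encodes connective tissue growth factor, a secreted protein of the CYR61 family that promotes matrix deposition. Its level was 114 and 98.6 CPM in PD100 libraries, against 8.90 and 10.6 CPM at PD800. The groups were again far apart, by 10.9-fold between the means, with a log2 fold change of -3.44 (SE 0.13). *Gm15270*, a transcript annotated on the opposite strand, overlaps *Ctgf* over 1667 bases and was credited with 38.9 and 24.8 counts at PD100, then 4.21 and 9.33 at PD800. Whether counting used the strand is not given in the sources used here, and without it reads of both genes cannot be told apart.

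*Ankrd1* (chromosome 19, 36111961 to 36120099, minus strand) encodes an ankyrin repeat protein of the nucleus and the sarcomere, and is a widely used reporter of YAP activity. It was the scarcest target, with counts of 253 and 279 at PD100 that compare with 26 and 18 at PD800, or 6.27 and 8.36 CPM against 0.723 and 0.560 CPM. The groups did not overlap and their means differed 11.4-fold. Its log2 fold change of -3.49 had the widest standard error of the 10 members, 0.24. On the log2(TPM + 1) scale the difference was -1.79, since the pseudocount of 1 is larger than its TPM in PD800 cells.

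*Amotl2* (chromosome 9, 102716672 to 102733418, plus strand) encodes an angiomotin, a junction protein that binds YAP and holds it out of the nucleus, so that it is both a target and an inhibitor of YAP. It was at 130 and 129 CPM at PD100, and at 50.9 and 51.8 CPM at PD800. The replicates were close together and the groups did not overlap. The mean was 2.52-fold higher in PD100 cells, the smallest difference of the 4 targets, with a log2 fold change of -1.33 (SE 0.07).

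**Figure D2:**
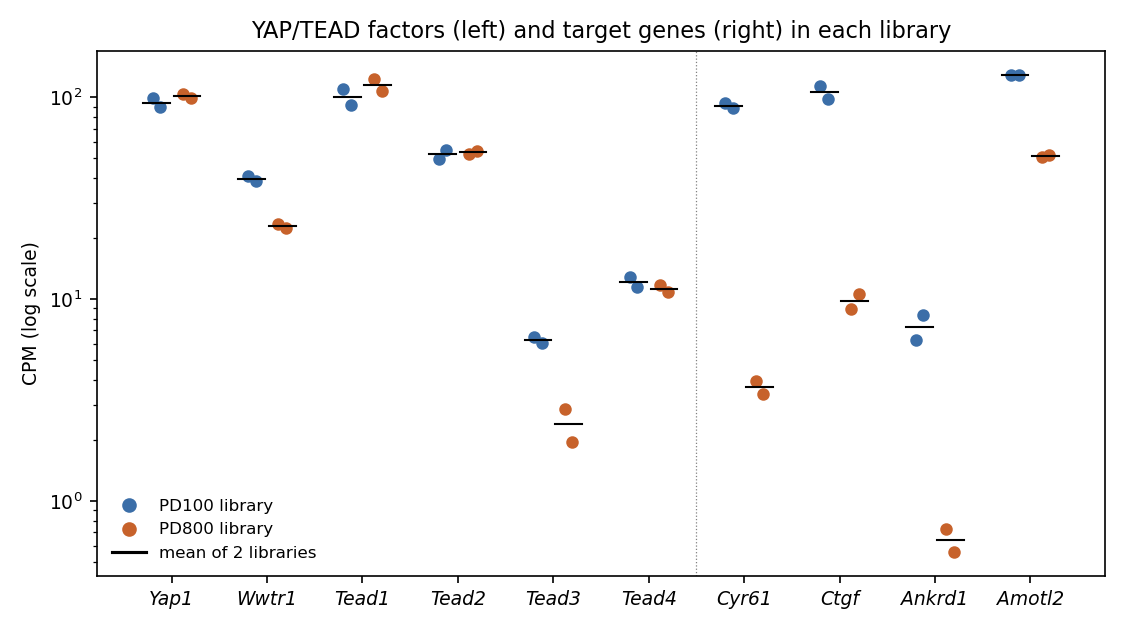
CPM (log axis) of each member in each library, with PD100 libraries in blue, PD800 libraries in orange and the mean of 2 libraries as a bar; factors stand to the left of the dotted line and targets to the right. The 4 targets, *Tead3* and *Wwtr1* separate by group, while *Yap1*, *Tead1*, *Tead2* and *Tead4* overlap.

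On the TPM scale, *Ctgf* (37.7 ± 4.81, SD, n = 2), *Cyr61* (36.3 ± 4.26) and *Amotl2* (31.8 ± 3.39) stood close together in PD100 cells, and the libraries of neighbours in this order overlapped. *Ankrd1* was far under them at 3.35 ± 0.417 TPM. In PD800 cells the order was *Amotl2* (9.88 and 9.61 TPM), *Ctgf* (2.76 and 3.46), *Cyr61* (1.37 and 1.11) and *Ankrd1* (0.29 and 0.21), with no overlap between neighbours. The sum of the 4 targets was 113 and 105 TPM in the PD100 libraries but 14.3 and 14.4 TPM at PD800. *Amotl2* made up 26.0% and 32.4% of this sum at PD100, as against 69.1% and 66.8% at PD800. The effective length that RSEM gave *Amotl2* was 2654 bases in the second PD100 library and 3278 to 3427 bases in the others, which enters its TPM but not its CPM.

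Some markers of other cell types were also lower in PD800 cells, most evenly those of primitive endoderm. Beside the counts of markers that follow, 8.81% of all genes tested were lower and 6.28% higher by the same thresholds. All 9 primitive endoderm markers fell past the thresholds given below, by a median of -3.66 on the log2 scale. Their summed level was 241 to 262 TPM at PD100, against 14.7 to 15.0 TPM at PD800. *Col4a1*, *Lama1* and *Gata4* had the highest CPM of this list over all 4 libraries. Of 7 tested trophectoderm markers 4 fell and *Eomes* rose, and the sum over the list of 8 was 378 to 382 TPM at PD100, against 21.2 to 22.2 TPM at PD800. This sum came mostly from 2 keratin genes, *Krt8* (184 and 175, then 7.49 and 7.43 TPM) and *Krt18* (186 and 190, then 4.88 and 4.98 TPM). *Tfap2c* was not called, at 6.74 and 6.79 TPM, then 7.30 and 6.87 TPM. *Krt8*, *Krt18* and *Tfap2c* had the highest CPM there over all 4 libraries, whereas *Cdx2*, the defining factor downstream of TEAD4, was at 1.36 and 1.11 CPM, then 0.417 and 0.498 CPM.

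Of 9 tested fibroblast markers, which would show feeder cells, 5 fell and 0 rose. Here too the shares over all genes tested were 8.81% lower and 6.28% higher. The list of 10 summed to 106 to 133 TPM at PD100 and to 112 to 128 TPM at PD800, mostly from *Vim*. *Col1a1* was at 13.0 and 24.4 CPM at PD100, with 1.95 and 2.52 CPM at PD800, and *Col1a2* was at 18.6 and 28.0 CPM, then 4.65 and 4.57 CPM. *Lum* had 0 counts in 3 libraries and 1 in the other. Of 6 markers of mesoderm and endothelium, led by *Pecam1*, *Tek* and *Kdr*, 2 fell and 0 rose, with sums of 19.4 to 21.9 and 17.3 to 19.7 TPM. Of 8 embryonic stem cell markers *Nanog*, *Esrrb* and *Klf4* rose and 0 fell, with sums of 1463 to 1772 and 2127 to 2174 TPM. In bulk RNA, fewer cells of a type and less RNA per cell cannot be told apart, and the part of these markers in the lower target genes was not tested.

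In CPM, *Yap1*, *Tead1*, *Tead2* and *Tead4* overlapped between the groups, and the other 2 factors, *Wwtr1* and *Tead3*, did not. In TPM, *Tead2* and *Tead4* did not overlap either. *Yap1* (chromosome 9, 7931999 to 8004596, minus strand), the YAP co-activator, was at 99.1 and 89.3 CPM at PD100, and at 104 and 99.0 CPM at PD800. The groups overlapped, and the log2 fold change was 0.11 (SE 0.08). *Wwtr1* (chromosome 3, 57455649 to 57575910, minus strand), which encodes TAZ, was at 40.7 and 38.5 CPM at PD100, and at 23.5 and 22.5 CPM at PD800. Its groups did not overlap, and the log2 fold change was -0.79 (SE 0.08), a level 1.72-fold higher in PD100 cells. *Yap1* took 75.0% and 73.4% of the summed TPM of both co-activators at PD100, but 84.5% and 84.3% at PD800.

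The TEAD factors share the TEA DNA-binding domain and bind the same motif. *Tead1* (chromosome 7, 112679318 to 112906807, plus strand) was at 110 and 91.9 CPM at PD100, and at 124 and 107 CPM at PD800. *Tead2* (chromosome 7, 45215753 to 45233644, plus strand), known for its early embryonic expression, was at 49.6 and 55.1 CPM, then 52.6 and 54.2 CPM. Both overlapped between the groups in CPM, with log2 fold changes of 0.20 (SE 0.12) and 0.03 (SE 0.08), but *Tead2* did not overlap in TPM, at 25.2 and 23.4 and then 20.8 and 19.0. *Tead4* (chromosome 6, 128224288 to 128300823, minus strand), the trophectoderm factor, was at 12.9 and 11.5 CPM at PD100, and at 11.7 and 10.9 CPM at PD800. It also overlapped in CPM, with a log2 fold change of -0.12 (SE 0.11). In TPM it was at 3.91 and 3.17, then 2.96 and 2.68, without overlap, and the difference was -0.25 on the log2(TPM + 1) scale.

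*Tead3* (chromosome 17, 28331671 to 28350817, minus strand) was the scarcest TEAD factor. It was at 6.49 and 6.08 CPM at PD100, and at 2.87 and 1.96 CPM at PD800. The groups did not overlap, and the mean was 2.60-fold higher in PD100 cells, with a log2 fold change of -1.38 (SE 0.21). Without the first PD800 library the log2 fold change was -1.68, and without the second it was -1.13. On the log2(TPM + 1) scale the difference was -0.88, under 2-fold, and with a pseudocount of 0.1 it was -1.54.

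Summed over the family, TEAD RNA was 48.7 and 47.0 TPM in the PD100 libraries and 42.4 and 36.2 TPM in the PD800 libraries. *Tead2* made up between 49.0% and 52.4% of this sum in the 4 libraries and *Tead1* between 35.7% and 41.8%. *Tead4* took 6.75% to 8.02%. *Tead3* took 4.60% and 3.94% at PD100, with 2.13% and 1.22% at PD800. The median log2 fold change of the 6 factors was -0.04 and that of the 4 targets was -3.47, while that of all genes tested was 0.01. *Yap1*, *Tead1* and *Tead2*, slightly above 0 on the count scale, were at -0.11, -0.17 and -0.28 on the log2(TPM + 1) scale, where the median of all genes was -0.12.

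**Figure D3:**
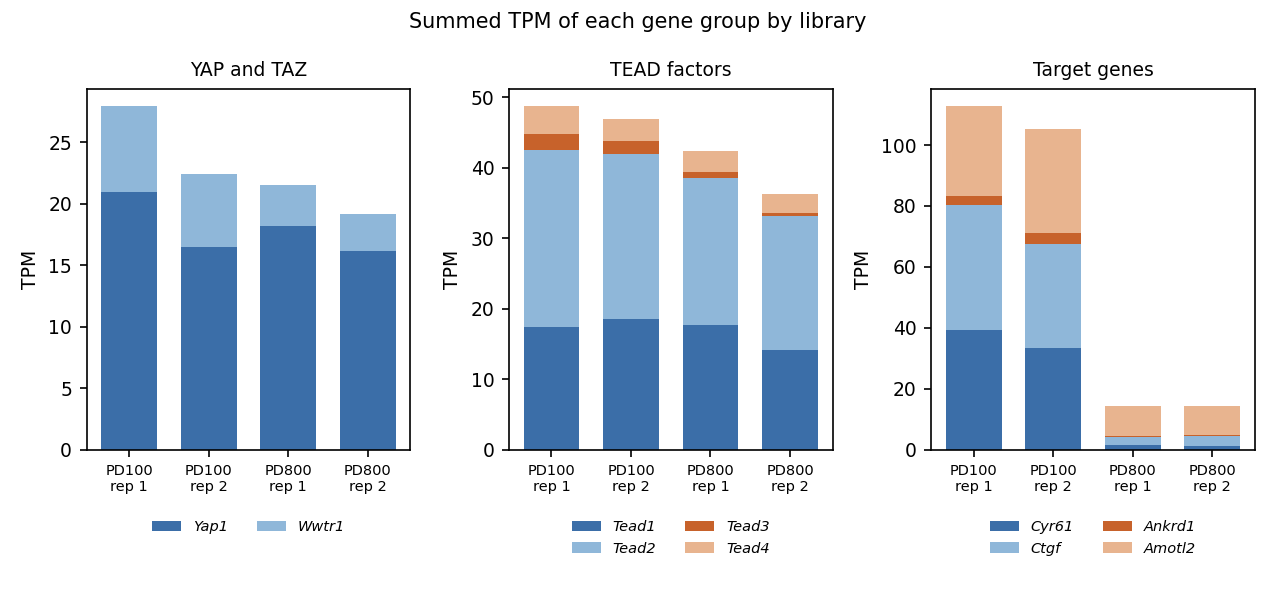
Stacked bars of TPM in each library for YAP and TAZ (left), the TEAD factors (middle) and the target genes (right), each panel with its own axis from 0. The sum of the targets is at 113 and 105 TPM in the PD100 libraries and at 14.3 and 14.4 TPM in the PD800 libraries, and *Tead2* and *Tead1* make up most of every TEAD bar.

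Genes were called with edgeR's quasi-likelihood test where the Benjamini-Hochberg adjusted p was below 0.01 and the difference was more than 2-fold, the limits used for the study's own gene list. By this rule 6.28% of the genes tested were higher and 8.81% were lower in PD800 cells. *Cyr61*, *Ctgf*, *Ankrd1*, *Amotl2* and *Tead3*, 5 of the 10 members, were past both limits, all 5 lower. The same difference chose the members, so nothing is read from this count.

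Each member was set beside the 40 tested genes nearest to it on its chromosome. *Cyr61* lies 14.3 Mb from the last annotated base of chromosome 3, and its neighbours had a median log2 fold change of 1.09, with 17 called higher and 4 lower. *Cyr61* differed from this median by -5.72. With 20 or 80 neighbours in place of 40, the median was 0.82 or 0.94. *Tead4*, 21.3 Mb from the end of chromosome 6, had neighbours with a median of 0.71, of which 8 were called higher and 3 lower, against its own value of -0.12. The neighbours of *Ctgf* had a median of -0.90, with 0 called higher and 13 lower, and those of *Ankrd1* a median of -0.44, with 2 higher and 11 lower. *Ctgf* and *Ankrd1* differed from these medians by -2.54 and -3.06. For the other 6 members the median of the neighbours was between -0.11 and 0.10. Copy number was not analysed here, and the part of regional differences in the members' values was not tested.

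**Figure D4:**
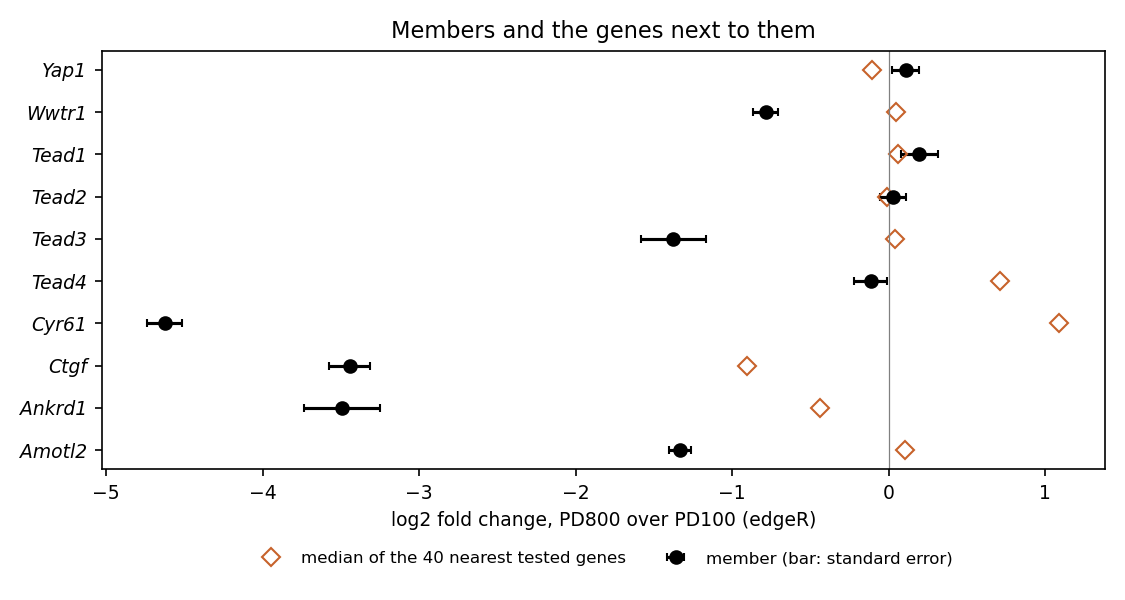
Log2 fold change of each member, PD800 over PD100, with its standard error (filled points), and the median of the 40 nearest tested genes (open diamonds). *Cyr61* at -4.63 stands against neighbours at 1.09, and *Tead4* at -0.12 against neighbours at 0.71.

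Other genes of the pathway were taken from 8 lists, which also hold AP-1 and SRF genes that are not part of the Hippo cascade. The lists have 84 genes in all, here called pathway genes, and were chosen with earlier results of these data known. Of the 81 with enough counts for a test, 30 fell and 0 rose, or 37.0% lower against 8.81% of all genes tested. The AP-1 list gave 6 of the 30 and the SRF list 7. The median log2 fold change of the 81 genes was -0.62. DESeq2 and the limma fits on TPM also called 0 of them higher. At an unadjusted p under 0.05, edgeR gave 6 higher genes, 0 of them past 2-fold. Without the first PD100 library 1 gene, *Mpp5*, was called higher.

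Among 17 Hippo kinases and adaptors, 2 fell, 15 were not called, and the median was 0.06. *Lats2*, a kinase that phosphorylates YAP and is itself a YAP target, was at 2.91 and 2.61 TPM at PD100, then 0.66 TPM in both PD800 libraries, with a log2 fold change of -1.79 (SE 0.12, adjusted p = 0.000191, edgeR). *Wwc1*, which encodes the upstream activator KIBRA, fell from 30.5 and 40.7 CPM to 14.5 and 16.4 CPM (log2 fold change -1.20, adjusted p = 0.00173, edgeR). With limma on log2(TPM + 1) its difference was -0.98 (adjusted p = 0.00532), just under 2-fold. *Lats1*, the other LATS kinase, had a log2 fold change of -0.82 (adjusted p = 0.00218, edgeR), under 2-fold, and its adjusted p was 0.0156 without the second PD800 library (edgeR) and 0.0193 with limma on log2(TPM + 1). The scaffold gene *Nf2*, at 99.8 and 105 CPM and then 115 and 115 CPM, did not pass (log2 fold change 0.17, adjusted p = 0.105, edgeR). *Taok2*, an upstream kinase, was named after its value was seen and was at 0.41 (adjusted p = 0.00653, edgeR), also under 2-fold. Its adjusted p was 0.122 without the first PD800 library and 0.0723 without the second (edgeR), and 0.27 with limma on log2(TPM + 1), where the difference was 0.16.

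The 8 genes of the STRIPAK complex, a phosphatase assembly that counteracts the Hippo kinases, had a median of -0.01. None was called by edgeR or DESeq2, and at an unadjusted p under 0.05 edgeR gave 1 higher and 3 lower. *Sike1*, a subunit named after its value was seen, was at 0.82 (adjusted p = 0.000749, edgeR), under 2-fold. Its TPM groups overlapped, at 6.84 and 10.3 and then 9.73 and 9.70, and limma on log2(TPM + 1) gave 0.19 (adjusted p = 0.509).

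Of 17 genes that hold YAP and TAZ at junctions, set up polarity or, as *Ajuba* does, inhibit LATS, 5 fell, 0 rose, and the median was -0.62. *Amot*, the founding angiomotin, was at 42.1 and 38.6 CPM at PD100, and at 5.54 and 5.54 CPM at PD800. Its groups were far apart, with a log2 fold change of -2.86 (SE 0.09, adjusted p = 3.86e-05, edgeR). Its paralog *Amotl1*, named after its value was seen, was at -1.04 (adjusted p = 0.00021, edgeR). *Pard3* and *Patj*, which encode polarity scaffolds, had log2 fold changes of -1.75 and -1.62, and *Ajuba*, a LIM protein that inhibits LATS, of -1.28. *Ptpn14*, a phosphatase that binds YAP, was at -0.55 (adjusted p = 0.00663, edgeR), under 2-fold. Its adjusted p was 0.0273 and 0.0683 without the first or the second PD800 library (edgeR), and 0.0119 with limma on log2(TPM + 1). *Mpp5*, a partner of PATJ named after its value was seen, was at 0.87 (adjusted p = 0.00103, edgeR), also under 2-fold, and at 0.64 (adjusted p = 0.0257) with limma on log2(TPM + 1).

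Of the VGLL cofactors, which compete with YAP for TEAD, 3 of 4 were tested and 1 fell. *Vgll3* was at 13.5 and 10.9 CPM at PD100, and at 5.95 and 4.26 CPM at PD800 (log2 fold change -1.25, adjusted p = 0.00325, edgeR), and it was not called by limma on TPM, where the difference was -0.99 (adjusted p = 0.0207) with a pseudocount of 1 and -1.56 (adjusted p = 0.0247) with 0.1. *Vgll4*, a repressor of YAP and TEAD, was at -0.51 (adjusted p = 0.00714, edgeR), under 2-fold. Its adjusted p was 0.0848 and 0.0535 without the first or the second PD800 library (edgeR), 0.0161 with DESeq2 and 0.0102 with limma on log2(TPM + 1).

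A published signature of YAP and TAZ targets in human cancers has 18 genes besides the members, *Lats2* and *Ptpn14* among them, and all were tested. In PD800 cells 9 fell, 0 rose and 9 were not called, with a median of -1.23. *Crim1*, a membrane regulator of BMP ligands, was at 34.3 and 40.9 CPM, then 2.84 and 3.80 CPM, with a log2 fold change of -3.50 (SE 0.17, adjusted p = 7.16e-05, edgeR). *F3*, the tissue factor that starts coagulation, fell from 55.8 and 55.9 CPM to 6.26 and 6.54 CPM. *Tgfb2*, a TGF-beta ligand, and *Ccdc80*, a matrix protein gene, had log2 fold changes of -2.44 and -2.38. Summed over the list, the level was 129 and 123 TPM at PD100, as against 59.9 and 56.3 TPM at PD800. Of the other 4 genes of the CCN family, to which *Cyr61* and *Ctgf* belong, 2 were tested, and *Wisp1* fell from 9.98 and 8.75 CPM to 1.64 and 2.27 CPM (adjusted p = 0.000374, edgeR).

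Of 7 subunits of AP-1, a factor that shares enhancers with TEAD, 6 fell, and the median was -2.07. *Fosl2* fell from 13.7 and 12.2 CPM to 0.668 and 1.28 CPM, a log2 fold change of -3.75 (SE 0.26, adjusted p = 0.000189, edgeR). *Fosb*, *Junb* and *Jun* were at -3.21, -2.29 and -2.07, and *Jund*, the 1 subunit not called and named after its value was seen, was at -0.85 (adjusted p = 0.00708, edgeR). *Jund* was called without the first PD100 library (-1.04), and its adjusted p was 0.0361 and 0.0109 without the first or the second PD800 library (edgeR). Of 11 genes of SRF, its MRTF cofactors and their cytoskeletal targets, which respond to tension as YAP does, 7 fell and the median was -2.06. *Tagln*, an actin-binding protein gene, fell from 76.4 and 92.4 CPM to 8.21 and 8.22 CPM (log2 fold change -3.36, SE 0.12, adjusted p = 4.47e-05, edgeR). *Myl9*, *Cnn1* and *Acta2*, which encode parts of the contractile apparatus, were at -2.76, -2.53 and -2.36.

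Some genes named from these lists had under 1 TPM in PD800 cells. For 9 of them the fold, not its log2, was smaller by over 1.5 times on the log2(TPM + 1) scale, where the pseudocount exceeds the level. The log2 difference on this scale was -1.47 for *Fosl2*, -0.55 for *Fosb*, -2.08 for *Crim1*, -0.68 for *Tgfb2* and -1.15 for *Ccdc80*. It was -1.98 for *Amot*, -1.18 for *Lats2*, -1.03 for *Wisp1* and -1.43 for *Cnn1*. With a pseudocount of 0.1, *Fosb* was at -2.00 and *Tgfb2* at -1.84.

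**Figure D5:**
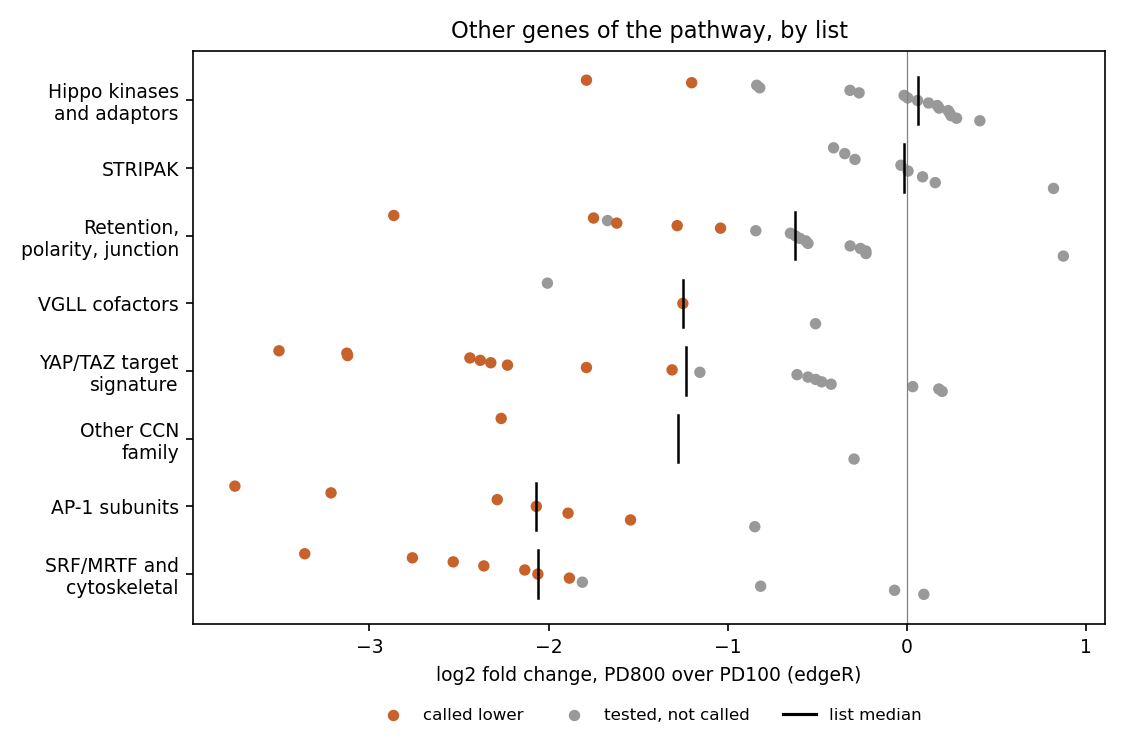
Log2 fold change, PD800 over PD100, of each tested gene of the 8 lists; orange points are called lower, grey points are tested and not called, and the black line is the median of the list. The AP-1 and SRF lists have medians of -2.07 and -2.06, and the Hippo kinase and STRIPAK lists of 0.06 and -0.01.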

How the data were processed

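RNA from 2 PD100 and 2 PD800 cultures was sequenced as 101-base read pairs on an Illumina instrument. The authors aligned the reads to mm10 with STAR 2.5.3a and deposited expected counts per gene from RSEM 1.3.0, with no further normalisation. They also deposited TPM values from RSEM, scaled for effective transcript length to a fixed total per library. Versions are as given in the submitters' processing notes, which also name DESeq2 1.18.1; the annotation release is not given in the sources used here. By Ensembl identifier without version, 53274 of 53379 identifiers were found in GENCODE M21 (GRCm38), which gave the positions.

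Expected counts were rounded and tested with edgeR 4.0.16 in R 4.3.3 (filterByExpr with a minimum count of 10, TMM, quasi-likelihood test, Benjamini-Hochberg adjustment over 19148 genes), after the procedure had been tested on simulated data. TMM factors lay between 0.96 and 1.05, and 3 counts corresponded to 0.0743 to 0.0934 CPM. Alternatives were DESeq2 1.42.0, its size factors, upper-quartile scaling, no filter, a replicate block, limma 3.58.1 on log2(TPM + 1) and log2(TPM + 0.1), other thresholds, leaving out each library, and 20 or 80 neighbours. p-values rest on the spread between 2 libraries per group, moderated across genes. All cultures are of 1 line, so they carry no difference between independent survivor lines. The members, lists and tests were chosen with earlier results of these data known. Named were all members, the called genes of each list with at least 1 CPM on average (at most 4 per direction, by size of change), *Lats1*, *Lats2*, *Nf2*, *Ptpn14* and *Vgll4*, and the 3 markers per list with the highest mean CPM over all libraries; others are said to be named after their values were seen, and *Cdx2*, *Lum*, *Nanog*, *Klf4*, *Esrrb* and *Eomes* were also named so. *Lats2* has 2 identifiers, of which the one with counts was used.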

Additional observations from a re-analysis of the deposited data

How the results depend on the processing

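Of all genes, 1202 were called higher and 1686 lower. These counts were 274 and 872 under limma with TPM plus 1, 454 and 1605 under limma with TPM plus 0.1, and 2513 and 2943 without the fold limit. Leaving out 1 library gave 880 to 1514 higher and 1274 to 1893 lower. Of the pathway genes 30 were called lower, and 25 to 43 under the alternatives. The number called higher was 0, except 3 without the fold limit, and 0 to 1 when a library was left out (1 without PD100 replicate 1). The direction turned on both TPM scales for *Yap1* (-0.109 and -0.114), *Tead1* (-0.171 and -0.180), *Tead2* (-0.280 and -0.291) and *Nf2* (-0.189 and -0.196), scales on which all genes had medians of -0.12 and -0.21; the cause was not tested. *Tead2* was also at -0.04 without PD100 replicate 1. The other 7 members kept their sign under all 11 alternatives. *Fosb*, *Tgfb2*, *Vgll3* and *Wwc1* were not called with limma on log2(TPM + 1), where *Jund* was.

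In the fit with a replicate block, 1461 genes were called higher and 1956 lower, and 33 pathway genes lower. The numbers are not said to pair the cultures, and deviations of same-numbered libraries correlated at 0.265 across genes. With 2 libraries per group, no single library can be called an outlier.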
